A study of Mus musculus with 7 samples.

Results

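Genes that mark oligodendrocyte progenitors or progenitor-like glioma cells, 9 in number, were followed across 3 genotypes of the receptor phosphatase gene Ptprd. These were Olig1, Olig2, Sox10, Pdgfra, Cspg4, Cspg5, Rlbp1, Gpm6a and Marcks. Members were found by gene symbol among probe sets that name exactly 1 gene, and the brightest probe set stood for each gene. All 9 genes were on the array, with 19 probe sets among them, and all 9 passed the filter on dim genes that left 9243 of 12393 named genes. The RNA came from gliomas of mice injected in the brain on day 1 to 3 after birth with RCAS PDGFB GFP, an avian retroviral vector carrying the growth factor PDGFB and a green marker. The vector infects only cells with its receptor tv-A, which the mice express from the Nestin promoter. Every mouse, control or not, was p16-/-, so all groups lacked this cell cycle inhibitor, and the strain was a mix of C57/BL6 and FVB/N. Tumours were taken when symptoms appeared or 12 weeks after injection, and living cells with the green marker were sorted. The labels do not say at which of these times, or from how many mice, each sample was taken. The groups were Ptprd+/+p16-/- (wild type, 2 arrays), Ptprd+/-p16-/- (heterozygous, 2 arrays) and Ptprd-/-p16-/- (null, 3 arrays).

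Oligodendrocyte progenitors are the dividing glial cells of the brain that give rise to myelinating oligodendrocytes. OLIG1, OLIG2 and SOX10 are the transcription factors that set up and keep this lineage, and PDGFRA is the receptor through which platelet-derived growth factor drives its division. Gliomas induced with PDGFB in rodents resemble these cells, and the receptor and the proteoglycan NG2, the product of Cspg4, are the surface proteins by which progenitors are usually recognised. Cspg5, Rlbp1, Gpm6a and Marcks are also strongly expressed in progenitors or in progenitor-like glioma, but are not restricted to them.

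The label of glioma cells with a progenitor character was checked against marker genes. On every array all 9 genes lay at or above the 80.8th percentile of all named genes, and all 9 lay above the array's 30th percentile, the limit used for dim genes. Markers of other cell types were mixed. In the lineages nearest to progenitors, 12 of 13 myelinating oligodendrocyte genes and 12 of 14 astrocyte genes lay above the 30th percentile on all arrays. In neither list did a gene lie below it on all. Mbp lay at 12.08 to 12.90 (log2) and Clu at 11.60 to 12.28. High levels of the 9 genes therefore do not by themselves set progenitors apart from these lineages. Of 11 endothelial and pericyte genes, 5 lay above the 30th percentile on all 7 arrays and 5 below it on all, among the latter the defining endothelial genes Pecam1, Cdh5 and Tek. Of 12 neuronal genes, 6 lay above on all arrays, with Gad1, Dcx and Snap25 between 8.80 and 10.35 (log2), and 4 below, among them Rbfox3 and Syt1. Of 20 microglia and macrophage genes, 10 lay above on all arrays, with Ctss at 7.46 to 9.64 and Csf1r at 7.38 to 9.13, and only Itgam lay below on all. The level of Ptprd, the targeted gene, was 10.86 and 10.89 (log2) in wild type, 9.42 and 9.57 in heterozygous cells, and 9.61, 8.95 and 9.93 in null cells. It separated wild type from the other groups but not heterozygous from null cells. It is not known here whether this probe set lies in the targeted part of the transcript. The heterozygous arrays stood apart: over all probe sets they correlated with other groups at 0.976 to 0.987, against 0.990 to 0.995 between wild type and null. Heterozygous replicate 1 and null replicate 1 carried both Xist and the Y-linked Eif2s3y at high levels, while each other array carried only 1 of them. Results were also computed without these arrays.

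Before the values, the stretches just upstream of the transcription start are shown for 4 of the genes, because most of the genes were lower in the same arrays. RefSeq promoters of the build GRCm38.p6 matched 5 of the 9 genes. Shown are Rlbp1, the gene with the largest difference, Olig2 and Pdgfra, the lineage factor and the growth factor receptor that fell, and Cspg4, which did not pass the test. Each is 250 bases long, is read 5′ to 3′ on the strand of the gene and ends at the base before the start site. Capitals mark the E-box CANNTG, the short motif read by basic helix-loop-helix factors such as the OLIG proteins.
Rlbp1, chr7:79387028-79387277, minus strand: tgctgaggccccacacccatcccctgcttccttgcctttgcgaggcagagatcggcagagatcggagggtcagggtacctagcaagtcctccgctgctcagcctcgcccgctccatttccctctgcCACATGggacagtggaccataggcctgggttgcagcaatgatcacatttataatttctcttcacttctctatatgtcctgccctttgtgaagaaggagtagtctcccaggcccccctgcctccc
Olig2, chr16:91225300-91225549, plus strand: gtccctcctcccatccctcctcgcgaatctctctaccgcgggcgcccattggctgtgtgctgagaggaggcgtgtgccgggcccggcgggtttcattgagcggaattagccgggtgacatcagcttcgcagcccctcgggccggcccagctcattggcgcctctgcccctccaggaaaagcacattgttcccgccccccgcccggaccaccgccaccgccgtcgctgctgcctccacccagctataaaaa
Pdgfra, chr5:75152001-75152250, plus strand: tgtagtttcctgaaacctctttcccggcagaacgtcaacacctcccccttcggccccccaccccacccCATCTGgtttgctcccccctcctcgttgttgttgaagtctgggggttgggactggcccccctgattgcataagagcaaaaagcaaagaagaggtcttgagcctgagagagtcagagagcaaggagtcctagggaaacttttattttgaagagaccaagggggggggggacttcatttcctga
Cspg4, chr9:56864854-56865103, plus strand: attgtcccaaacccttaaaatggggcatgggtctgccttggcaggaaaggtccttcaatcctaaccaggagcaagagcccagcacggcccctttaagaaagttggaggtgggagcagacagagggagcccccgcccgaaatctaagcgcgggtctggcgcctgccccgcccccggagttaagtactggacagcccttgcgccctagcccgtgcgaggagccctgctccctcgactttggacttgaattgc

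The E-box was searched on both strands. It occurred once each in Rlbp1 (CACATG) and in Pdgfra (CATCTG), and in neither Olig2 nor Cspg4. Gpm6a, with 2 start sites in RefSeq, had 3 and 1. Of 32851 promoters in the same 250-base window, 66.2% held at least 1. The SOX motif, searched as ACAAAG or ACAATG on both strands, occurred once in Rlbp1 and once in Olig2 and is present in 25.2% of all promoters. The STAT motif TTCNNNGAA, present in 7.02% of promoters, was found in 1 of the Gpm6a windows and in no window of the other 4 genes. These matches describe the sequence and are not evidence of binding.

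All 9 genes were lower in heterozygous than in wild-type tumour cells, and 6 passed the test across all genes. Rlbp1, Cspg5, Olig2, Pdgfra, Gpm6a and Marcks fell, to between 29.6% and 67.5% of the wild-type level. Olig1, Cspg4 and Sox10 did not pass. In null cells all 9 means lay between those of the other genotypes, though for Cspg5 wild type and null were both at 12.39 (log2). Against wild type 0 genes passed. Against heterozygous cells 3 were higher in null cells, Olig2, Cspg5 and Rlbp1. The test was limma's moderated test with Benjamini-Hochberg adjustment over 9243 genes, and genes with an adjusted p below 0.05 are called here. The same rule called 5.95% of all genes lower in heterozygous than in wild-type cells. The median log2 difference was -0.63 for the 9 genes and -0.04 for all genes tested. In these mixed RNA samples, fewer progenitor-like cells and less RNA per cell cannot be told apart.

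**Figure D1:**
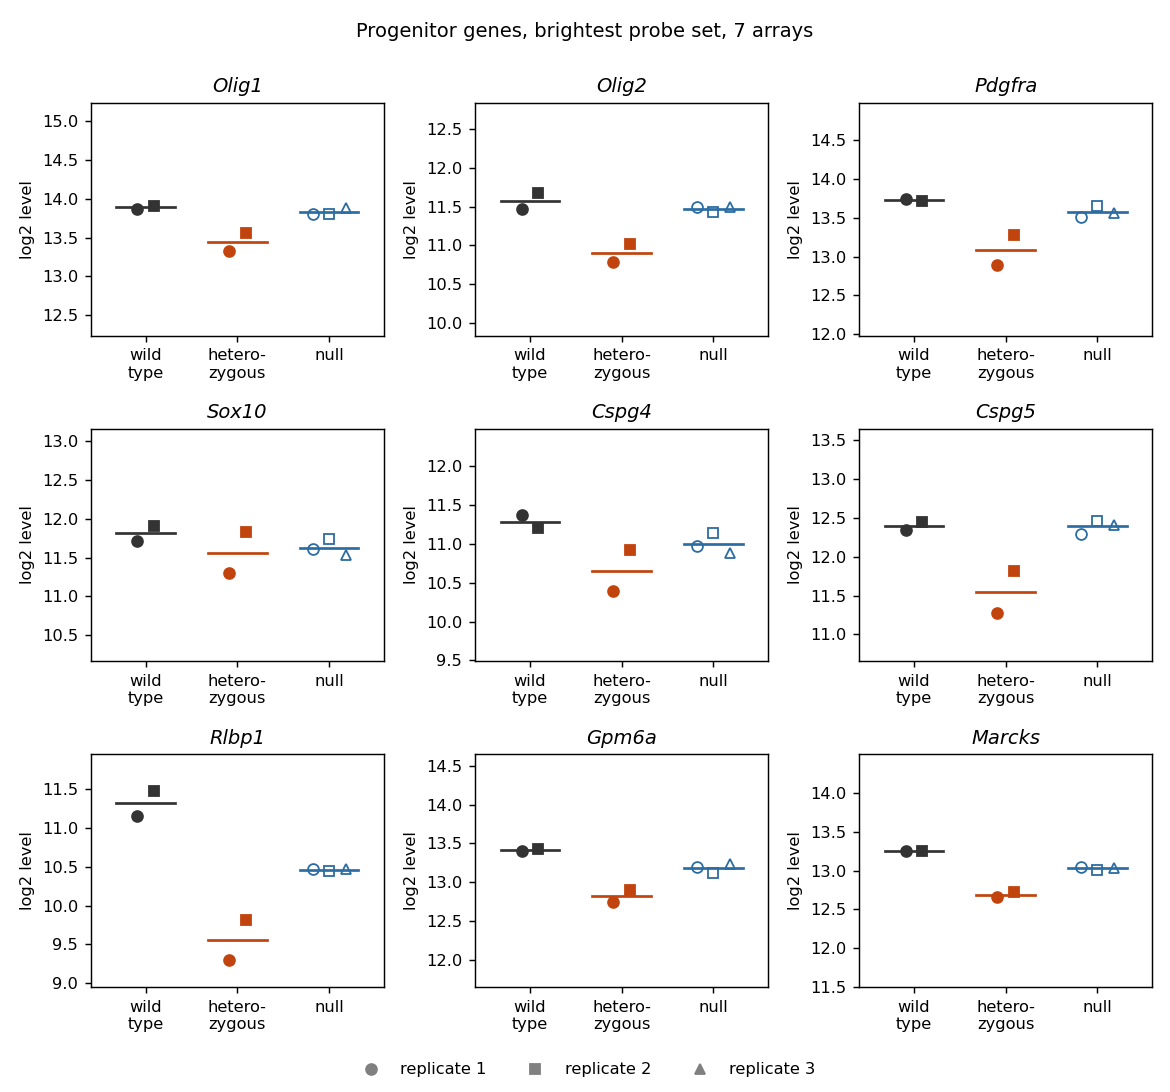
Log2 level of the brightest probe set of each gene on the 7 arrays, by Ptprd genotype; points are arrays, with the replicate number as the shape, and lines are group means. The heterozygous arrays are the lowest for every gene except Sox10 and, against null cells, Cspg4, and the axes of all panels span the same number of log2 units.

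Among the transcription factors, Olig2 differed most. Olig2, a basic helix-loop-helix factor needed for the oligodendrocyte lineage, stood at 11.47 and 11.67 in wild type, 10.78 and 11.02 in heterozygous cells, and 11.50, 11.43 and 11.49 in null cells (log2 levels, as are all levels given here). Both heterozygous arrays were below the other 5, and the null arrays lay within or just below the wild-type range. The heterozygous minus wild-type difference was -0.67 ± 0.13 (log2, SE, adjusted p = 0.0251), a 1.59-fold fall.

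Olig1, the paralogue of Olig2 that acts in oligodendrocyte maturation, read 13.87 and 13.91 in wild type, 13.33 and 13.56 in heterozygous cells, and 13.81, 13.80 and 13.88 in null cells. The heterozygous arrays were again the lowest, and 1 of the 3 null arrays lay within the wild-type range. Its difference of -0.45 ± 0.12 (log2, SE) in heterozygous cells missed the threshold (adjusted p = 0.0522, 95% interval -0.72 to -0.18). The Olig1 probe set is among the brightest on every array, at or above the 99.9th percentile.

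Sox10, the high mobility group factor that activates myelin and progenitor genes, was at 11.72 and 11.91 in wild type, 11.30 and 11.83 in heterozygous cells and 11.62, 11.74 and 11.53 in null cells. Its groups overlapped: heterozygous replicate 2 lay between the wild-type arrays. The difference in heterozygous cells was -0.25 ± 0.19 (log2, SE, adjusted p = 0.411), with a 95% interval from -0.69 to 0.19. The -0.67 of Olig2 lies inside this interval.

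Among the surface proteins, Pdgfra, the receptor that binds the vector's growth factor, read 13.74 and 13.72 in wild type, 12.90 and 13.27 in heterozygous cells, and 13.52, 13.65 and 13.57 in null cells. The 3 genotypes did not overlap, with null cells in between. The fall in heterozygous cells was 1.57-fold (log2 difference -0.65 ± 0.14, SE, adjusted p = 0.0368).

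Cspg4, which encodes NG2, was at 11.37 and 11.21 in wild type, at 10.39 and 10.92 in heterozygous cells and at 10.98, 11.15 and 10.89 in null cells. Heterozygous replicate 2 lay among the null arrays, and replicate 1 was well below all others. The difference of -0.63 ± 0.19 (log2, SE) was about as large as that of Pdgfra, with more spread, and did not pass (adjusted p = 0.0751, 95% interval -1.07 to -0.19). NG2 is also made by pericytes. Of the pericyte and mural genes listed, Kcnj8 and Anpep lay below the 30th percentile on all arrays. Acta2, at 6.15 to 8.07, lay above it on all, and Rgs5 lay at 6.44 to 7.05 on 6 arrays and at 4.62 in null replicate 2.

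Cspg5 encodes neuroglycan C, a membrane proteoglycan with an EGF-like domain. It read 12.34 and 12.44 in wild type, 11.28 and 11.82 in heterozygous cells, and 12.29, 12.46 and 12.42 in null cells. The wild-type arrays lay within the range of the null arrays, while both heterozygous arrays were lower. The fall in heterozygous cells was 1.79-fold (log2 difference -0.84 ± 0.18, SE, adjusted p = 0.034).

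Rlbp1 differed most of the 9. It encodes CRALBP, a carrier of retinaldehyde in the visual cycle that is also made by glial progenitors. Its levels were 11.16 and 11.48 in wild type, 9.30 and 9.82 in heterozygous cells, and 10.47, 10.44 and 10.47 in null cells. The 3 genotypes formed separate steps, and the null arrays were within 0.03 of each other. The fall in heterozygous cells was 3.38-fold (log2 difference -1.76 ± 0.19, SE, adjusted p = 0.00681), the 40th smallest p among 9243 genes.

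Gpm6a, a membrane glycoprotein of growth cones that is related to the myelin protein PLP, read 13.40 and 13.43 in wild type, 12.75 and 12.89 in heterozygous cells, and 13.20, 13.12 and 13.24 in null cells. Marcks, a protein kinase C substrate that binds actin at the cell membrane, read 13.25 and 13.26 in wild type, 12.66 and 12.72 in heterozygous cells, and 13.05, 13.01 and 13.03 in null cells. For both genes the 3 genotypes were separate and the replicates close together. They fell in heterozygous cells by 0.60 ± 0.11 (Gpm6a, adjusted p = 0.0214) and 0.57 ± 0.10 (Marcks, adjusted p = 0.0181) on the log2 scale (SE).

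Across the 9 genes, heterozygous and wild-type arrays did not overlap for 8, the exception being Sox10. The same holds for 61.3% of all genes tested, so a lack of overlap was common in this comparison. Heterozygous replicate 1 was below heterozygous replicate 2 for all 9 genes (55.1% of all genes), by 0.06 (Marcks) to 0.54 (Cspg5). An F test for any difference among the 3 genotypes called 5 of the 9, Rlbp1 (adjusted p = 0.013), Marcks (0.0411), Olig2 (0.0437), Gpm6a (0.0466) and Cspg5 (0.0478). It called 5.65% of all genes.

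**Figure D2:**
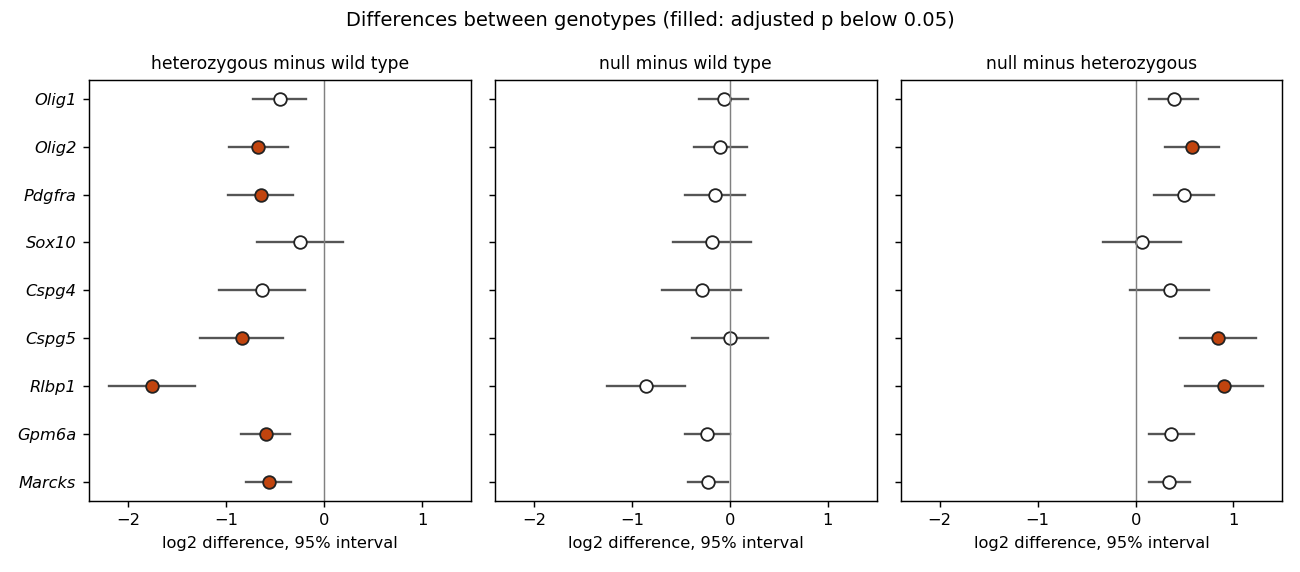
Log2 differences between genotypes (heterozygous minus wild type, null minus wild type, null minus heterozygous) with 95% intervals from the limma fit; filled points have an adjusted p below 0.05. All 9 points lie below 0 in the left panel, 6 of them filled, and all 9 lie above 0 in the right panel, 3 of them filled.

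The calls in heterozygous cells depended on single arrays, although the direction did not for any gene but Sox10. Leaving out wild type replicate 1 reduced the 6 calls to 1, Rlbp1, and leaving out heterozygous replicate 1 did the same. Leaving out wild type replicate 2 reduced them to 0 (8 of 9 at an unadjusted p under 0.05, and 33 of all genes called). Leaving out any 1 null array left 4, Olig2, Rlbp1, Gpm6a and Marcks, and leaving out heterozygous replicate 2 gave 8, all but Sox10. With heterozygous replicate 1 and null replicate 1 both left out it was 0 as well (7 of 9 at an unadjusted p under 0.05), and in that setting 0 of 9243 genes passed. With the 3' minus 5' signal of control probe sets as a covariate, a measure of RNA integrity that ran from 0.61 to 0.91 over the arrays, 1 gene passed, again Rlbp1, but the differences were about as large. With it Olig2 differed by -0.68 (adjusted p = 0.0613), Pdgfra by -0.66 (0.0768), Cspg5 by -0.85 (0.0737), Gpm6a by -0.62 (0.0506) and Marcks by -0.58 (0.0507). Over the 17 other settings tried, the difference of Rlbp1 ran from -2.02 to -1.4997, of Olig2 from -0.79 to -0.55, of Pdgfra from -0.84 to -0.46 and of Cspg5 from -1.11 to -0.57. That of Sox10 ran from -0.51 to 0.02.

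Arrays that carried Xist without Y-linked RNA can be set side by side, 1 of each genotype, with no test. Heterozygous replicate 2 was below wild type replicate 2 for all 9 genes, by 0.08 (Sox10) to 1.66 (Rlbp1) on the log2 scale, where 52.7% of all genes were lower. Null replicate 3 was below the same wild-type array for all 9 genes as well, by 0.03 (Cspg5) to 1.00 (Rlbp1), where 44.8% of all genes were lower. Heterozygous replicate 2 was below null replicate 3 for 7 of the 9, all but Sox10 and Cspg4, where 55% of all genes were lower.

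All 19 probe sets were lower in heterozygous than in wild-type cells. In a fit over all single-gene probe sets, the weaker probe set of Pdgfra differed by -0.80 ± 0.22 (log2, SE, adjusted p = 0.0675) between heterozygous and wild-type cells, close to the -0.65 of the brighter set. The other probe set of Gpm6a fell by 0.60 (adjusted p = 0.0234). The 5 other probe sets of Marcks differed by -0.53 to -0.41, and 3 of them passed. Those that did not pass differed by -0.41 (adjusted p = 0.122) and -0.42 (adjusted p = 0.12), the latter read by a dim set with levels of 5.46 to 6.13. The other probe set of Cspg4 differed by -0.43 ± 0.16 (adjusted p = 0.139). The 2 other probe sets of Sox10 were dimmer, with log2 levels from 5.08 to 8.27, and differed by -0.13 and -0.01. Thus none of the 3 probe sets of Sox10 passed, at adjusted p of 0.428, 0.834 and 0.984. Olig1, Olig2, Cspg5 and Rlbp1 have a single probe set each.

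**Figure D3:**
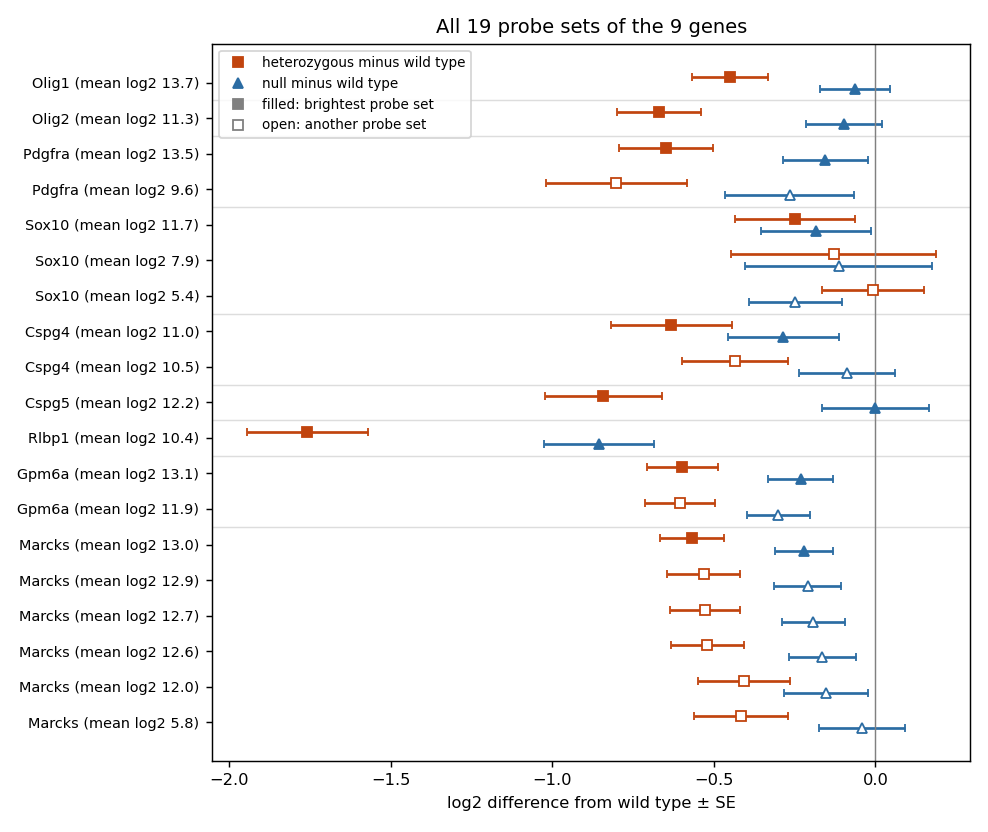
Log2 difference from wild type ± SE for all 19 probe sets of the 9 genes, with the mean log2 level of the probe set in brackets; squares are heterozygous and triangles null cells, and filled symbols are the brightest probe set of a gene. For Pdgfra, Cspg4, Gpm6a and Marcks every probe set lies further below 0 in heterozygous than in null cells. The Sox10 probe sets lie from -0.25 to -0.01 in heterozygous and from -0.25 to -0.11 in null cells.

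Loss of both alleles gave smaller differences from wild type. In null against wild-type cells limma called 0 of the 9 genes and 0% of all genes. An unadjusted p under 0.05 was found for 3 of the 9, Rlbp1, Marcks and Gpm6a, and for 475 of the 9243 genes tested. An unmoderated fit called 0 of the 9 as well. Rlbp1 differed by -0.86 ± 0.17 (log2, SE), or to 55.3% of wild type, with the 8th smallest p of all genes (adjusted p = 0.882). Marcks differed by -0.22 (95% interval -0.43 to -0.01) and Gpm6a by -0.23 (interval -0.46 to -0.00). Their null arrays all lay below both wild-type arrays, and so did those of Pdgfra and Cspg4, making 5 of 9 genes without overlap where 21.7% of all genes had none. The intervals of the others bound what these arrays could miss. Olig2 differed by -0.10 (interval -0.37 to 0.18), Olig1 by -0.06 (-0.31 to 0.19), Pdgfra by -0.16 (-0.46 to 0.15), Cspg5 by -0.00 (-0.39 to 0.39), Sox10 by -0.18 (-0.58 to 0.22) and Cspg4 by -0.28 (-0.69 to 0.12).

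Set directly against heterozygous cells, null cells had higher levels of all 9 genes, and 3 were called where 5% of all genes were called higher. Rlbp1 was higher by 0.90 ± 0.17 (log2, SE, adjusted p = 0.0281), Cspg5 by 0.84 ± 0.16 (adjusted p = 0.0303) and Olig2 by 0.57 ± 0.12 (adjusted p = 0.033). Marcks (0.34), Pdgfra (0.49), Gpm6a (0.37) and Olig1 (0.39) had adjusted p between 0.0543 and 0.0626. Cspg4 (0.35, adjusted p = 0.235) and Sox10 (0.06, adjusted p = 0.85) did not pass. For 7 of the 9 the arrays of the 2 genotypes stood fully apart, as they did for 43.7% of all genes. The order wild type, null, heterozygous from highest to lowest mean held for all 9 genes and for 27.3% of all genes. For Cspg5 the wild-type and null means were both 12.39 (log2). The comparisons of heterozygous cells with null and with wild-type cells share the heterozygous arrays.

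These 3 calls depended on the arrays too. Leaving out heterozygous replicate 1 gave 0 calls (6 of 9 at an unadjusted p under 0.05), as did leaving out null replicate 1 (7 of 9), null replicate 3 (7 of 9) or the first replicates of both genotypes together (5 of 9). Only Rlbp1 was called without wild type replicate 1 or 2 or without null replicate 2. With each array's median subtracted, 7 of the 9 were called, all but Cspg4 and Sox10.

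Other genes of the progenitor programme were taken from 2 lists. Of 22 further surface, matrix and secreted genes of progenitors, 18 were measured. All 18 were lower in heterozygous than in wild-type cells, as were 55.1% of all genes. Of the 18, 11 fell, against 5.95% of all genes called lower. The median log2 difference of the 18 was -0.74. Sema5a, a guidance semaphorin, fell by 1.33 ± 0.15 (log2, SE, adjusted p = 0.00749), though its other probe set was too dim to test. Ednrb, the endothelin receptor B, fell by 1.18 ± 0.13 (adjusted p = 0.00749), Tmem100 fell by 1.10 (adjusted p = 0.00933) and Nxph1, a neurexin ligand, fell by 1.04 (adjusted p = 0.0288). Others that fell were the Notch ligands Dll1 (log2 difference -0.93) and Dll3 (-0.75), the cadherin Pcdh15 (-0.81) and the matrix proteoglycan Bcan (-0.73). The rest were the phosphatase Ptprz1 (-0.61), the contactin Cntn1 (-0.53) and the auxiliary AMPA receptor subunit Cacng4 (-0.51).

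For Ednrb and Sema5a both heterozygous arrays lay below the 5 others. Ednrb read 11.28 and 11.03 in wild type, 9.94 and 10.003 in heterozygous cells, and 11.48, 11.31 and 11.23 in null cells. Sema5a read 9.20 and 8.92, then 7.78 and 7.68, then 8.46, 8.23 and 8.56, so that its null arrays lay between the other groups as those of Rlbp1 did. Null against wild-type cells gave 0 calls among the 18 with limma. An unadjusted p under 0.05 was found for 2 of them, Sema5a (-0.64) and Pcdh15 (-0.35), and for 475 of the 9243 genes tested. Null against heterozygous cells gave 10 calls, all higher in null, where 5% of all genes were called higher. Ednrb was higher by 1.37, and Tmem100, Bcan, Nxph1, Dll1, Lnx1, Dll3, Sema5a, Cacng4 and Pcdh15 by 0.94 to 0.46.

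The 11 calls in heterozygous cells dropped to 3 when wild type replicate 1 was left out, to 2 when wild type replicate 2 was, to 4 when heterozygous replicate 1 was, and to 0 with heterozygous replicate 1 and null replicate 1 both left out. The 10 calls between null and heterozygous cells became 4 without either wild-type array, without null replicate 1 or without null replicate 3. They became 1 without heterozygous replicate 1, 6 without heterozygous replicate 2, and 0 with heterozygous replicate 1 and null replicate 1 both left out.

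Of 9 further transcription factors of progenitors, 6 were measured, and their differences had no common direction. Sox5, which holds progenitors back from maturing, fell by 0.71 ± 0.16 (log2, SE, adjusted p = 0.0409) in heterozygous cells, and its 3 other probe sets were lower too. The next smallest p in the list belonged to Sox11 (0.74 ± 0.25, adjusted p = 0.108), a factor of immature neural cells, which lay higher, and to Myt1 (-0.42 ± 0.18, adjusted p = 0.177). Nkx2-2, an activator of oligodendrocyte maturation, differed by -0.03 ± 0.19 (adjusted p = 0.94). The list's median was -0.15.

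**Figure D4:**
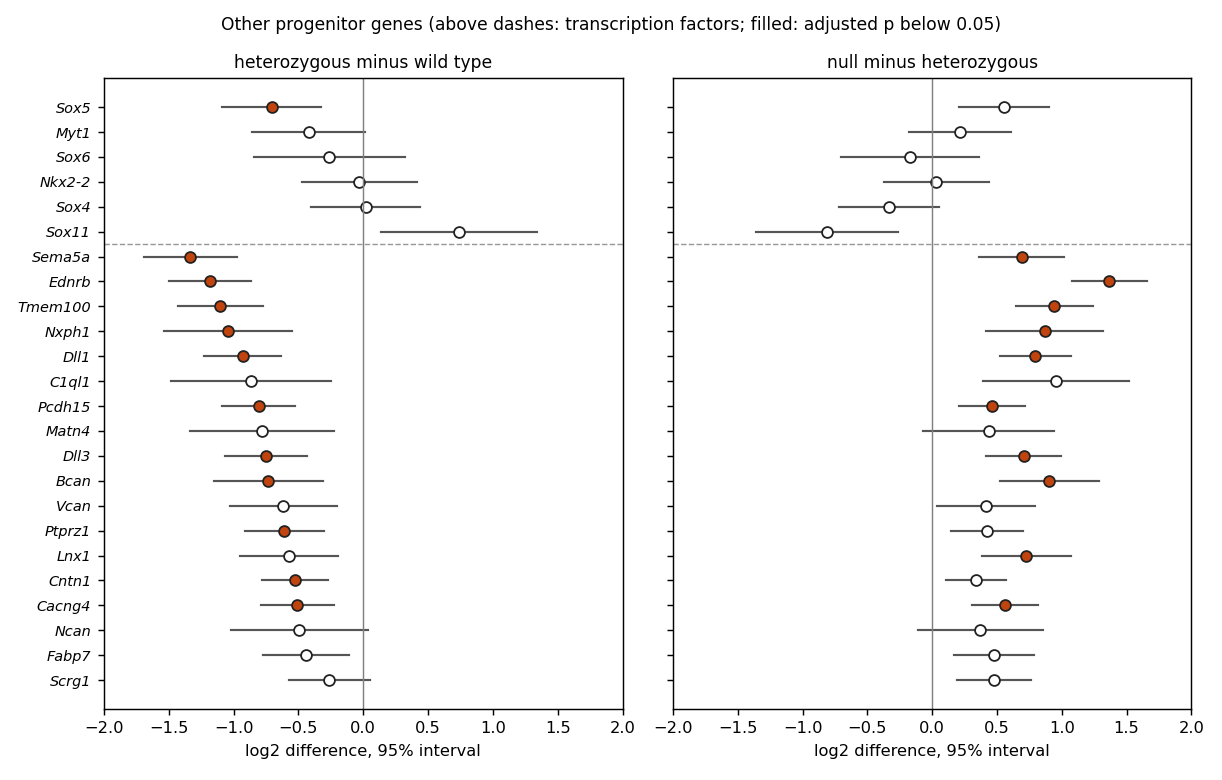
Log2 differences with 95% intervals for 6 further transcription factors (above the dashed line) and 18 surface, matrix and secreted genes of progenitors, heterozygous minus wild type on the left and null minus heterozygous on the right; filled points have an adjusted p below 0.05. All 18 surface genes lie below 0 on the left, 11 of them filled, and above 0 on the right, 10 of them filled.

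The ligands of the receptor moved in different directions. Pdgfa, the main ligand of PDGFRA in the brain, rose in heterozygous cells by 0.61 ± 0.10 (log2, SE, adjusted p = 0.018) from 7.93 and 7.94 in wild type to 8.55 and 8.54, with null cells at 7.89, 7.77 and 7.91. Its other probe set was higher by 0.85. Pdgfc fell by 0.72 ± 0.10 (adjusted p = 0.0109), with null cells in between. Null cells differed from heterozygous cells by -0.69 for Pdgfa (adjusted p = 0.0121) and by 0.37 for Pdgfc (adjusted p = 0.0458). Pdgfrb, the other receptor, differed by 0.07 (adjusted p = 0.786). The array's 2 Pdgfb probe sets lay between 4.30 and 4.57 and between 3.61 and 4.14, below the 30th percentile on every array, although the tumours were induced with PDGFB. Whether they can read the vector's transcript was not tested.

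Proteins that act on OLIG and other basic helix-loop-helix factors were taken as a list of 11. The inhibitors Id1, Id3 and Id4, which bind the shared E-protein partners and keep them from DNA, rose in heterozygous cells. Among all genes, 4.20% were called higher there. Id3 rose by 1.96 ± 0.22 (log2, SE, adjusted p = 0.0073), from 6.83 and 6.47 to 8.69 and 8.54, with null cells at 7.17, 6.55 and 6.89. Id4 rose by 1.62 (adjusted p = 0.0326, and by 1.11 and 1.31 in its other probe sets) and Id1 by 1.53 (adjusted p = 0.0334). Id2 differed by -0.26 ± 0.37 (adjusted p = 0.687), and its other probe sets by 0.05 and 0.10. The Notch target Hes5 fell by 1.05 (adjusted p = 0.0265, and by 0.69 in its other probe set). Hes1 differed by -0.90 ± 0.29 and did not pass (adjusted p = 0.0907). The E-proteins Tcf3, Tcf4 and Tcf12 and the chromatin remodellers Chd7 and Smarca4 did not pass, with differences from -0.33 (Chd7, adjusted p = 0.137) to 0.17 (Tcf12). Their other probe sets differed by -0.27 (Tcf4) to 0.41 (Tcf12). In null against heterozygous cells Id1, Id3 and Id4 were lower by 1.43, 1.75 and 1.52, and Hes1 and Hes5 higher by 1.17 and 0.81, all 5 past the threshold, where 3.96% of all genes were called lower and 5% higher. None of the 11 passed in null against wild-type cells with limma, and 0 had an unadjusted p under 0.05.

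Among marker lists of other cell types, microglia and macrophage genes were highest in the heterozygous arrays, where the progenitor genes were lowest. The summed linear signal of the 9 progenitor genes was 98.4% and 102% of the wild-type mean in the wild-type arrays, 60.0% and 72.8% in heterozygous arrays and 87.6%, 89.8% and 89.9% in null arrays. That of 20 microglia and macrophage genes was 116% and 84.3% in wild type, 232% and 302% in heterozygous cells, and 95.9%, 141% and 99.0% in null cells. Of the 18 such genes measured, 14 rose and 0 fell in heterozygous against wild-type cells, where 4.20% of all genes were called higher. Among the 14, Ptprc, Cd68 and Cd14 lay above the limit for dim genes on the heterozygous arrays only. Their higher levels there brought them into the test, so their calls are not independent of the filter. Ptprc, which encodes CD45, read 4.32 and 4.38, then 5.88 and 5.62, then 4.33, 4.58 and 4.53. The myeloid signal was higher in heterozygous replicate 2 than in replicate 1, while the progenitor genes were lower in replicate 1. The fibroblast signal did not follow the heterozygous arrays alone. Over 5 genes it was 127% and 72.8% in wild type, 333% and 158% in heterozygous cells and 280%, 97.1% and 321% in null cells. The part of these cells in the differences of the progenitor genes was not tested.

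The other lists differed less between the genotypes, or only in some of their genes. The signal of 13 myelinating oligodendrocyte genes was 107% and 99.5% in the heterozygous arrays and 87.6% to 117% in null arrays. Cnp, Mbp and Ugt8a made up 71.1% to 83.8% of that sum. Of the 13 genes, limma called 0 in heterozygous against wild-type cells and 0 in null against heterozygous cells. At an unadjusted p under 0.05 were 4 and 5 of them, and 2766 and 2636 of the 9243 genes tested. The 4 were all higher in heterozygous cells, Cldn11 by 1.23, Mag by 0.94, Nkx6-2 by 0.71 and Myrf by 0.65. Of these, Nkx6-2 lay above the limit for dim genes on the heterozygous arrays only (5.13 and 5.27). It entered the test through those arrays, so its direction is not independent of the filter. Over the list, 7 genes were higher and 6 lower. Of 14 astrocyte genes, 3 rose in heterozygous cells, Gfap by 1.49, Aldh1l1 by 1.46 and Sox9 by 1.34, against 4.20% of all genes called higher. On the wild-type and null arrays Aldh1l1 lay below the limit for dim genes, at 4.44 to 4.75. Only its heterozygous levels brought it into the test, so its call is not independent of the filter. Gja1 (1.77, adjusted p = 0.0583) and Aqp4 (1.61, adjusted p = 0.0799) were higher but did not pass. In the same list S100b, which progenitors also express, fell by 0.76 (adjusted p = 0.0331), and 6 of the 14 were lower. The summed astrocyte signal was 85.0% in heterozygous replicate 1 and 112% in heterozygous replicate 2, against 93.5% and 106% in wild type. Of 8 neuronal genes measured, 2 fell, Gad1 by 1.24 and Snap25 by 0.84, against 5.95% of all genes called lower. The summed signal of the neuronal list was 60.1% and 68.7% of the wild-type mean in the heterozygous arrays and 89.2% to 99.6% in null arrays. Gad1, Dcx and Snap25 made up 70.7% to 86.2% of that sum, and of the 8 measured genes 4 were higher and 4 lower in heterozygous cells, with a median log2 difference of -0.10. The endothelial and pericyte signal was 111% and 104% in heterozygous arrays and 73.4% to 111% in null arrays. Of 6 endothelial and pericyte genes measured, limma called 0 in heterozygous against wild-type cells, and 0 had an unadjusted p under 0.05.

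**Figure D5:**
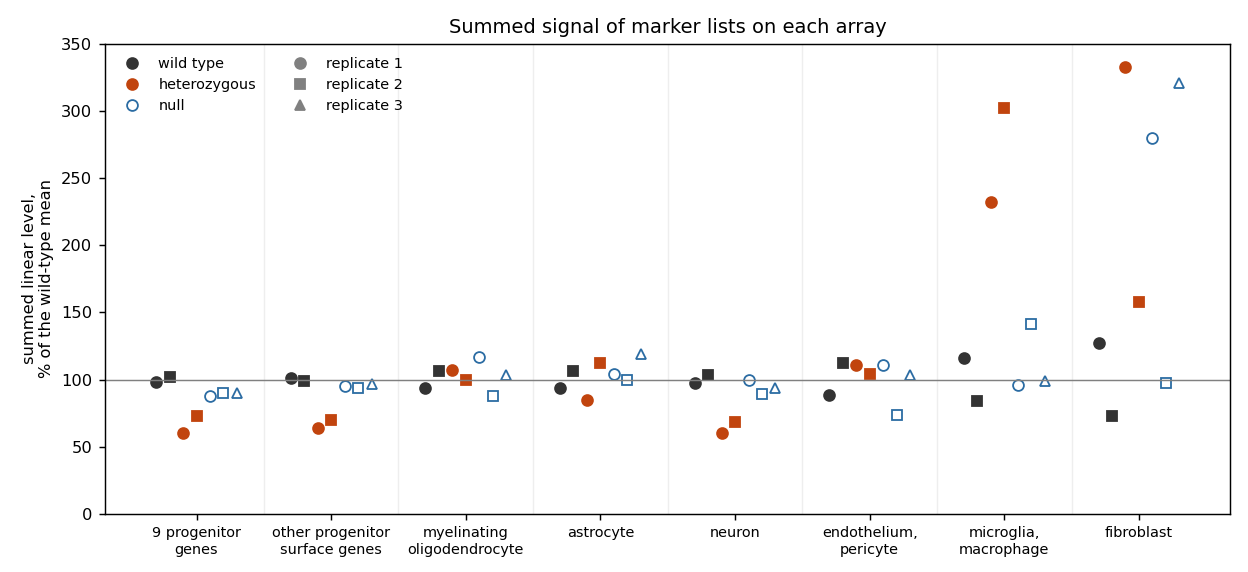
Summed linear signal of each marker list on each array, as a percent of the mean of the wild-type arrays; colours are genotypes and shapes are replicate numbers. The heterozygous arrays are the lowest for the 9 progenitor genes (60.0% and 72.8%) and the highest for microglia and macrophage genes (232% and 302%).

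The profiles of the 9 genes over the 7 arrays resembled one another to different degrees. Likeness was measured as the root-mean-square difference, in log2 units, between profiles centred on each gene's mean, and is small for genes that vary little. Gpm6a and Marcks were the closest pair, at 0.038. Olig2 and Pdgfra differed by 0.098, Olig1 and Olig2 by 0.10, and Sox10 and Rlbp1, the farthest pair, by 0.58. Among all other genes tested, the profile nearest to Olig2 was that of Armcx1 (0.043), to Olig1 that of Rtn3 (0.011) and to Pdgfra that of Pttg1ip (0.025). Smox was nearest to Cspg5 (0.039), Kif13a to Cspg4 (0.071), Zfp108 to Sox10 (0.067) and Rpap1 to Marcks (0.030). For Gpm6a the nearest were Hadhb (0.036) and Cntn1 (0.040), the latter a progenitor gene of the list above. Nearest to Rlbp1, which varied most, were Dync1i1 (0.18), Lifr (0.23) and Gask1b (0.23). As a share of the member's own spread, the distance to the nearest gene was 0.27 for Rlbp1, 0.36 for Sox10, 0.25 for Cspg4 and 0.054 for Olig1.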

How the data were processed

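RNA of sorted tumour cells was measured on 7 Affymetrix 3' expression arrays. The deposited values are log2 expression values per probe set. RMA and Partek 6.6 are the tools listed in the submitters' processing notes. RMA gives all arrays a common distribution, so a shift of all genes cannot be seen. Precision is limited by how many arrays there are.

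Probe sets were named from the platform annotation (20380 of 22690 name 1 gene). The brightest probe set over the arrays stood for a gene, and a gene was tested if it lay above the array's 30th percentile on at least 2 arrays. In R 4.3.3, limma 3.58.1 estimated 1 mean per genotype from the 7 arrays together (4 residual degrees of freedom), all tests two-sided, with Benjamini-Hochberg adjustment over 9243 genes and a threshold of 0.05. The fit was tested on simulated data. P-values measure the spread between these samples, which the labels call biological replicates.

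The members, lists and alternatives were chosen with earlier results of these data known. Named were the members, the list genes past the threshold or, failing these, those of smallest p, and the 3 nearest profiles per member. Summed signals add 2 to the power of the log2 value. Alternatives were other filters, the mean of probe sets, no moderation, 2 groups only, array weights, covariates, median scaling and left-out arrays. Promoter sequences are RefSeq's (GRCm38.p6).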

Additional observations from a re-analysis of the deposited data

How the results depend on the processing

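For the 9 genes, 17 alternative settings were run per comparison. All differences kept their sign except those of Sox10 in the comparisons with heterozygous cells, and of Olig2 and Cspg5 in null against wild type. None of these exceptions was called. Counts of calls moved much more. In heterozygous against wild-type cells, all genes, the 9 genes and the progenitor surface genes gave 938, 6 and 11 calls. An unmoderated fit gave 97, 1 and 0, a fit of these genotypes alone 172, 0 and 2, the covariate for 3' minus 5' signal 372, 1 and 6, and leaving out heterozygous 1 and null 1 together 0, 0 and 0 (1802 of all genes at an unadjusted p under 0.05). Leaving out 1 array gave 33 to 802, 0 to 8 and 2 to 10. In null against heterozygous cells the counts were 828, 3 and 10. The unmoderated fit gave 2, 0 and 0, these genotypes alone 355, 1 and 4, and leaving out those arrays 0, 0 and 0 (1426 at an unadjusted p under 0.05). With the covariate 471 genes and 0 of the 9 were called, with array weights 482 genes, and with median scaling 7 of the 9. Leaving out 1 array gave 90 to 732, 0 to 4 and 1 to 11. In null against wild-type cells 0 genes became 1 with the mean of probe sets and 1 without moderation, and 0 to 1 without 1 array, while the 9 genes gave 0 in all settings. The alternatives for the progenitor surface genes were chosen after seeing the data.

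Whether the replicate numbers pair the arrays cannot be settled here. Deviations of arrays with the same number correlated across genes at -0.41 to 0.11, and those with different numbers at -0.28 to 0.41. With 2 arrays in a group the deviations mirror each other, so few of these values are independent. With the replicate number as a block, which leaves fewer degrees of freedom, the counts were 217, 1 and 4 in heterozygous against wild type and 25, 0 and 1 in null against heterozygous. A call lost in a fit without 1 wild-type or heterozygous array rests on a lone array assumed to vary like the others.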
